A study of Mus musculus with 28 samples.

Results

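Blood mononuclear cells of mice exposed to 1000 cGy of total body irradiation were compared with those of mice exposed to 200 cGy, which is the step from an intermediate to a lethal dose. The comparison took the 7 mice labelled 1000 cGy and the 7 labelled 200 cGy, 14 of the 28 samples, and all probes with at least 5 values in each of these groups, 16638 of 16722. Probes listed with exactly 1 gene were averaged per gene, which gave 9096 genes. The mice were C57Bl6 females, 10 weeks old, given a single exposure from a Cs137 source or, for the controls (0 cGy), none, and 50 cGy was the remaining dose. Blood was drawn from the eye 6 h after exposure and mononuclear cells (MNCs) were taken over Ficoll-Hypaque, a density step that leaves most neutrophils and red cells behind. All groups shared strain, sex, age and time, so recovery, other times and males were not measured. RNA of each mouse, labelled with Cy5, was hybridized against a universal mouse reference RNA labelled with Cy3 on an Operon 70-mer array, 1 array per mouse and never with the dyes exchanged. Values are therefore log2 ratios of sample to reference, here centred on the median of each array.

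Ionizing radiation breaks DNA, and the kinases that sense breaks stabilize p53, a transcription factor that turns on genes of cell cycle arrest, repair and death together with its own inhibitors. Among blood cells, B cells are known to be among the most sensitive to radiation, while T cells, NK cells and myeloid cells survive longer. DNA released or left unrepaired in a cell can also set off the interferon pathway, in which sensors and interferon receptors lead to transcription of antiviral genes through interferon-stimulated response elements (ISREs) in their promoters.

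Some arrays stood apart from their dose. In the first principal component of the 14 arrays, which held 45.9% of the variance, 1000 cGy replicate 5 lay at -13.4 and the other 6 mice of its dose at 16.8 to 52, whereas 200 cGy replicate 6 lay at 19.3 and the other 6 of its dose at -58.8 to -3.2. After each probe's mean over the 28 arrays was taken off, 200 cGy replicate 6 had a mean correlation of 0.559 with the 1000 cGy mice and of 0.120 with its own group over 15587 probes. The 200 cGy replicates 2 and 3 also correlated more with the 1000 cGy mice (0.449 and 0.446) than with their own group (0.207 and 0.263). 1000 cGy replicate 5 had 0.443 with its own group and 0.301 with the 200 cGy mice, where the other 1000 cGy mice had 0.622 to 0.692 with their own. The counts of the interferon, p53 and B cell lists are given below also without 1000 cGy replicate 5 and without 200 cGy replicate 6. Array medians before centring averaged -0.44 ± 0.06 at 1000 cGy and -0.29 ± 0.10 at 200 cGy (SD, n = 7 each), and the SD of the ratios on an array was 1.61 to 1.77 at 1000 cGy, against 1.44 to 1.64 at 200 cGy. Quantile normalization, the alternative used below, is a scaling that gives all arrays the same spread. Missing values numbered 19 to 439 per array at 1000 cGy (median 94) and 24 to 68 at 200 cGy (median 33), the most being on 1000 cGy replicate 7.

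At 1000 cGy, genes of the p53 response and of the interferon pathway stood higher than at 200 cGy, and B cell and MHC class II genes stood lower. Of 16638 probes, 3177 were higher (19.1%) and 2480 lower (14.9%) in the 1000 cGy mice by limma at a Benjamini-Hochberg adjusted p under 0.05. Of 9096 genes, 1821 were higher (20.0%) and 1080 lower (11.9%), and with no centring the split turned to 954 higher and 1858 lower, with quantile normalization to 860 higher and 1111 lower. The median log2 difference of all genes was 0.09 as centred, -0.06 with no centring and 0.00 after quantile normalization. As centred, large changes were mostly rises: 149 genes were called higher and 32 lower with a log2 difference of at least 1 in size. Large changes were not counted under the other scalings. The 7 mice of each dose did not overlap for 170 genes higher at 1000 cGy (1.87% of those tested) and 174 lower (1.91%). All 28 arrays entered the fit, and a gene's SD was typically larger at 1000 cGy than at 200 cGy, with medians over genes of 0.281 and 0.230 log2 units.

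**Figure D1:**
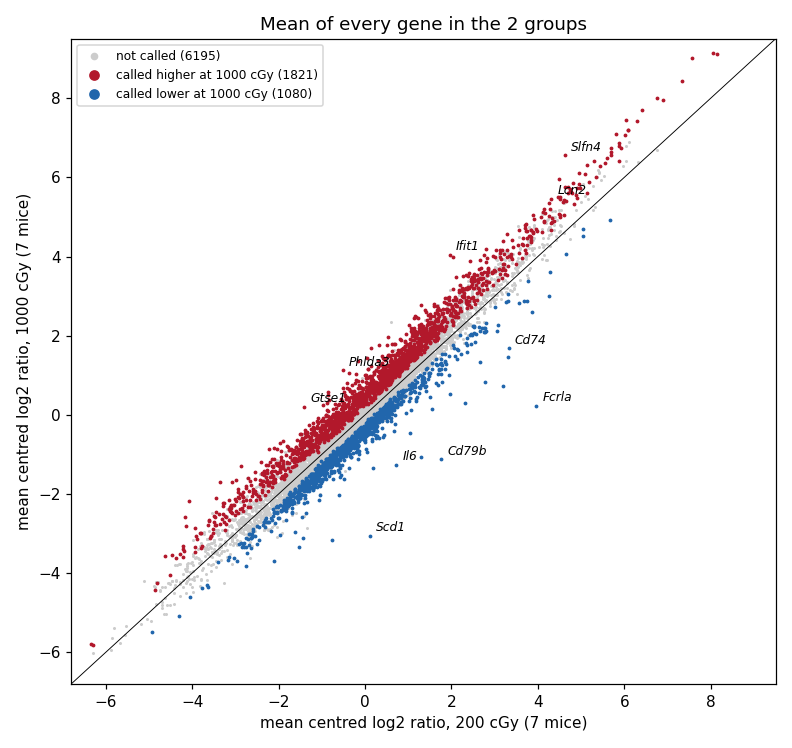
Mean centred log2 ratio of each of the 9096 genes in the 1000 cGy mice against its mean in the 200 cGy mice (n = 7 each). The 1821 genes called higher lie above the diagonal and the 1080 called lower lie below it, and the genes farthest from it are below.

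The 3 largest rises among genes whose mice did not overlap were Ifit1, Ifit3 and Slfn4. Ifit1, an antiviral protein that binds foreign RNA, had centred log2 ratios of 3.57 to 4.81 in the 1000 cGy mice (median 3.92), against 1.61 to 2.33 in the 200 cGy mice (median 1.91). Its neighbour Ifit3, which forms a complex with it, had 3.41 to 5.11 (median 3.71) in the 1000 cGy mice, against 1.62 to 2.40 (median 1.96) in the 200 cGy mice. For both genes, 1000 cGy replicate 5 was the highest of its group, and the lowest 1000 cGy mouse was still above the highest 200 cGy mouse. Ifit1 was higher by 2.08 ± 0.213 log2 units (SE, 4.24-fold, limma adjusted p = 7.94e-08), and Ifit3 by 1.94 ± 0.262 (3.83-fold, limma adjusted p = 6.76e-06). Isg15, a ubiquitin-like protein that is joined to other proteins during the interferon response, had 3.31 to 4.52 (median 3.77) in the 1000 cGy mice and 2.00 to 2.77 (median 2.57) in the 200 cGy mice, a rise of 1.46 ± 0.284 (limma adjusted p = 0.000554). In the 0 cGy mice Isg15 reached 3.28 in a single mouse, above all 200 cGy mice.

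The promoters of these genes are shown because the interferon pathway acts through letters that can be found in them. The windows are RefSeq sequence of GRCm38.p6, from position -180 to -31 relative to the start site, 5′ to 3′ on the gene's strand. Capitals mark the ISRE core, which was searched as GAAA, any 2 bases and GAAA again, or on the other strand TTTC, any 2 bases and TTTC, with overlapping matches kept. They are chr19:34640709-34640858 on the + strand for Ifit1, chr19:34583349-34583498 on the + strand for Ifit3 and chr4:156200849-156200998 on the - strand for Isg15.
Ifit1: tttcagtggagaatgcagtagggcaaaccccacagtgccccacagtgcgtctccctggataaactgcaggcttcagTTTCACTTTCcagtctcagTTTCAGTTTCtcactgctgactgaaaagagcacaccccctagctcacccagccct
Ifit3: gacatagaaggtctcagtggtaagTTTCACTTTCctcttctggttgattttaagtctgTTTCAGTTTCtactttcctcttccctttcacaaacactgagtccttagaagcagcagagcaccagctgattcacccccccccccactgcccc
Isg15: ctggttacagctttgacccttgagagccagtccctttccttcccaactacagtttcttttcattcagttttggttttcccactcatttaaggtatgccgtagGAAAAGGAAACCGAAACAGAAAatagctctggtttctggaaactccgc
Ifit1 held 2 matches, starting at -104 and -85, Ifit3 held 2, starting at -156 and -122, and Isg15 held 3 that overlap one another. Over the whole window of 250 bases before to 50 after the start site, 3.44% of 32851 RefSeq promoters held a match. Counted per gene, as for the list that follows, the share was 3.92% of the 7415 tested genes with a window. Of the 63 interferon-stimulated genes tested, 52 had a window and 25 of these (48.1%) held a match. Oasl1, Oasl2, Ifitm1, Irf7 and Herc6, which also rose, had none in their windows. Among all 7415 tested genes with a window, the 291 with a match were called higher in 26.8% and lower in 11.0% of cases, against 19.8% and 11.9% of the 7124 without. These 291 include the 25 interferon-stimulated genes with a match, so their share is not independent of that list.

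The interferon-stimulated genes as a list had 38 of 63 members higher at 1000 cGy and 2 lower, beside 20.0% and 11.9% of all genes, with a median log2 difference of 0.55. The counts were 39 higher without 1000 cGy replicate 5 and 41 higher without 200 cGy replicate 6, but 26 with no centring and 17 after quantile normalization, where the median was 0.21. The list mean over its genes, set relative to the 0 cGy mice, was 1.08 to 1.74 in the 1000 cGy mice (median 1.12) and 0.52 to 0.77 in the 200 cGy mice (median 0.62). No mouse of the 200 cGy group reached any of the 1000 cGy group, and 1000 cGy replicate 5 was the highest.

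Within the pathway, sensors and transcription factors rose in 7 of 12 cases. Beside the counts in this paragraph, 20.0% of all genes were higher and 11.9% lower. Ifih1, the sensor of long double-stranded RNA known as MDA5, was higher by 1.17 ± 0.163 (limma adjusted p = 1.04e-05), Dhx58 by 0.79 and the transcription factor Irf7, which amplifies interferon production, by 0.91. Effectors rose in 23 of 35 cases: among those past the threshold were Oas1g, Oas2 and Oas3 of the oligoadenylate synthetases (1.47, 1.17 and 0.73), Rsad2, the antiviral enzyme viperin (1.48), and Usp18, which removes Isg15 from proteins (0.96). Of these 35, Ifi203 fell (-0.49). Rsad2 had a median of 5.22 in the 0 cGy mice, 4.62 in the 200 cGy mice and 5.96 in the 1000 cGy mice. Its rise thus followed a lower median at 200 cGy, and its 1000 cGy mice overlapped the unirradiated ones. Guanylate-binding proteins, immunity-related GTPases and chemokines, a group that interferon gamma also drives, rose in 7 of 9 cases, with Gbp2 at 0.78, Irgm1 at 0.76 and Igtp at 0.62, while Cxcl10 was at 0.28 ± 0.242 (limma adjusted p = 0.369) after a rise of 2.12 at 200 cGy. Ligands, receptors and their kinases had 1 of 7 higher, the receptor subunit Ifnar2 (1.02, limma adjusted p = 0.0470), and 1 lower, the feedback inhibitor Socs1 (-0.47), and both calls were lost in some settings with a mouse left out, 10 of 14 for Ifnar2 (limma adjusted p up to 0.128) and 6 of 14 for Socs1 (up to 0.0946). Ifnar1, Jak1 and Jak2 were between -0.23 and 0.06 and not called. The calls of Dhx58, Oas2, Oas3, Gbp2, Irgm1 and Igtp were lost after quantile normalization, and those of Gbp2, Irgm1 and Igtp also with no centring. Oas, Ifit, Ifi200 and Slfn families hold near-identical members, and a 70-mer may bind more than its own gene.

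All 3 Schlafen genes measured, a family regulated by interferon and tied to growth control of lymphoid and myeloid cells, rose, beside 20.0% of all genes. Slfn4 had 5.91 to 7.60 (median 6.32) in the 1000 cGy mice and 3.99 to 5.14 (median 4.78) in the 200 cGy mice, with no overlap and a rise of 1.93 ± 0.371 (limma adjusted p = 0.00047). Slfn2 rose by 0.87 ± 0.133 with no overlap and Slfn9 by 0.61 ± 0.127 with overlap. After quantile normalization only 1 of the 3, Slfn4, was called.

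**Figure D2:**
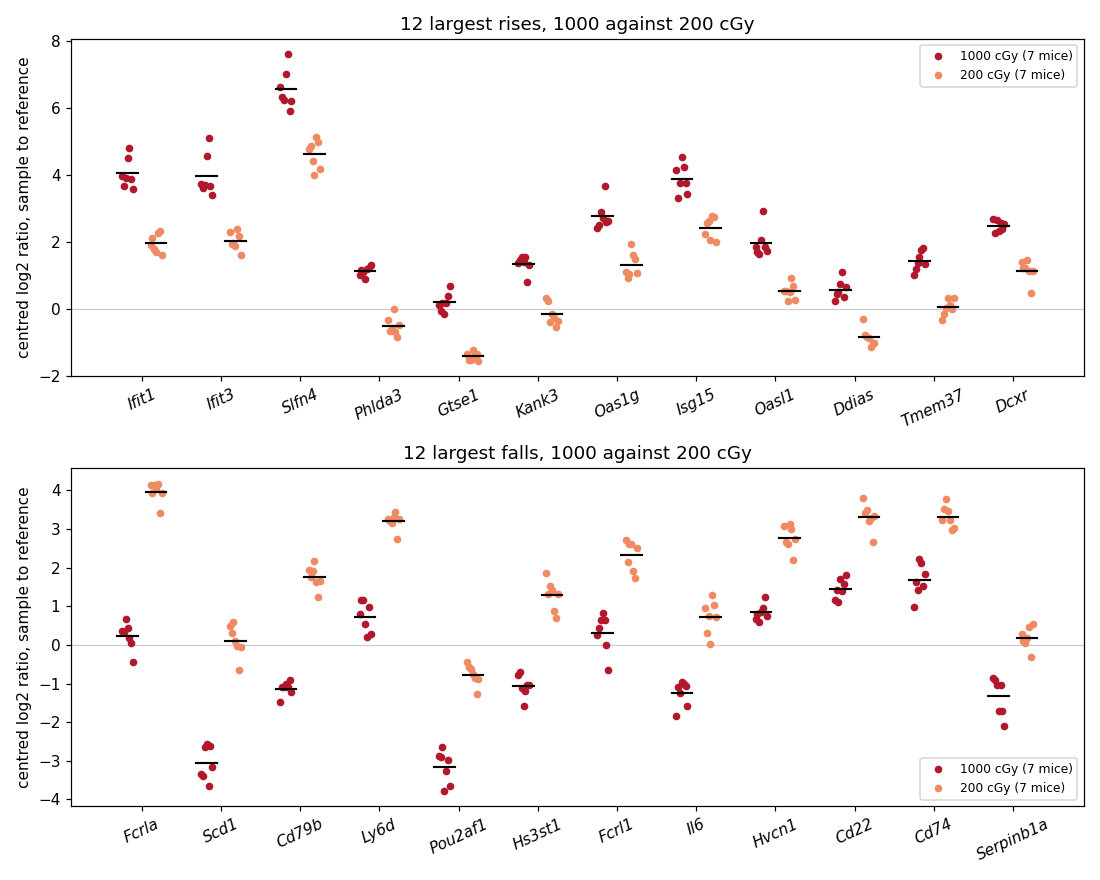
Centred log2 ratio to the reference in every mouse for the 12 largest rises and the 12 largest falls between 200 and 1000 cGy, among called genes whose mice did not overlap. For each gene the 7 mice at 1000 cGy and the 7 at 200 cGy form separate groups, Ifit1 rising by 2.08 log2 units and Fcrla falling by 3.74.

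Genes listed as p53 targets rose in 29 of 42 cases (69.0%) and fell in 3 (7.1%), with a median of 0.54. Of all genes 20.0% were higher and 11.9% lower. The list mean relative to 0 cGy was 1.12 to 1.38 in the 1000 cGy mice (median 1.18), against 0.57 to 0.77 in the 200 cGy mice (median 0.68), with no overlap. The counts were 28 higher without 1000 cGy replicate 5, 29 without 200 cGy replicate 6, 23 with no centring and 21 after quantile normalization, each with 3 lower. At the step from 0 to 200 cGy, 27 were called higher and 6 lower, and 25 of the 42 were called in the same direction at both steps, which share the 200 cGy mice.

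The feedback arm rose in 5 of 5 cases, beside 20.0% of all genes. Mdm2, the ligase that marks p53 for destruction, had 0.80 to 1.41 (median 1.04) in the 1000 cGy mice and 0.06 to 0.37 (median 0.20) in the 200 cGy mice, a rise of 0.81 ± 0.109 (1.75-fold, limma adjusted p = 6.39e-06). Ppm1d, the phosphatase Wip1 that turns the damage response off, had 0.65 to 1.39 in the 1000 cGy mice and -0.09 to 0.52 in the 200 cGy mice, a rise of 0.69 ± 0.100 after a difference of -0.03 ± 0.100 from 0 to 200 cGy (limma adjusted p = 0.826). For both, the groups did not overlap. Ccng1, cyclin G1, rose by 0.81 after 2.22 at the lower step.

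Arrest genes rose in 5 of 9 cases, beside 20.0% of all genes. Cdkn1a, which encodes the cyclin-dependent kinase inhibitor p21, had 1.93 to 2.26 (median 2.16) in the 1000 cGy mice and 0.81 to 1.81 (median 1.35) in the 200 cGy mice. The groups did not overlap, and the rise of 0.80 ± 0.126 (1.74-fold, limma adjusted p = 5.27e-05) followed one of 2.44 from 0 to 200 cGy. Gtse1, a protein of the later cell cycle that binds p53, rose by 1.61 ± 0.152 (3.06-fold) and Psrc1 by 0.86 ± 0.139, both with no overlap. Btg2, Plk3, Gadd45b and Gadd45g were at 0.13, 0.26, 0.03 and -0.07 and were not called.

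Death genes rose in 8 of 10 cases, beside 20.0% of all genes. Phlda3, a p53-induced inhibitor of the survival kinase Akt, had -4.54 to -3.22 (median -4.12) in the 0 cGy mice, -0.85 to 0.00 (median -0.58) in the 200 cGy mice and 0.90 to 1.31 (median 1.15) in the 1000 cGy mice, with no overlap between any of them. It thus rose at both steps, by 1.64 ± 0.159 at the upper (3.11-fold, limma adjusted p = 3.32e-08) and by 3.41 at the lower. Apaf1, the scaffold of the apoptosome, had 0.37 to 0.80 (median 0.56) in the 1000 cGy mice and -0.48 to 0.10 (median -0.36) in the 200 cGy mice, a rise of 0.86 ± 0.126 (limma adjusted p = 2e-05). Its groups did not overlap. The BH3-only genes Bbc3 (Puma), Bid and Pmaip1 (Noxa) rose by 0.47, 0.46 and 0.37 with overlap. All of these calls were lost with no centring and after quantile normalization, where Bbc3 and Pmaip1 turned to -0.10 and -0.08. Even as centred, the Pmaip1 median of the 1000 cGy mice, 2.68, did not exceed the 2.76 of the unirradiated mice. The 200 cGy mice had the lower median of 2.36, so this rise followed a drop. The death receptor Fas, 1.39 higher at 200 than at 0 cGy, was at 0.32 ± 0.140 (limma adjusted p = 0.0801).

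Ei24, a p53-induced gene of the endoplasmic reticulum, had 2.40 to 2.71 (median 2.66) in the 1000 cGy mice and 1.14 to 1.62 (median 1.42) in the 200 cGy mice. There was no overlap, and with an SE of 0.073 its rise of 1.19 (2.27-fold) had the smallest adjusted p of the p53 list, 1.86e-12 by limma. The translesion polymerase Polk rose by 1.04, the phosphatidate phosphatase Lpin1 by 1.02 and Dcxr, a carbonyl-reducing enzyme, by 1.34, each with no overlap. The 3 that fell were Sesn1, a sestrin that restrains growth signalling through mTORC1, with 0.67 to 1.28 in the 1000 cGy mice and 1.50 to 2.26 in the 200 cGy mice, Pcna, the sliding clamp of DNA replication (-0.37), and Ddb2, a sensor of ultraviolet damage (-0.28), whose call was lost in 9 of 24 alternative settings. Sesn1 had also fallen by 1.67 from 0 to 200 cGy.

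B cell genes gave the largest falls. Fcrla, an Fc receptor-like protein of B cells, had -0.43 to 0.68 (median 0.34) in the 1000 cGy mice, against 3.42 to 4.17 (median 4.05) in the 200 cGy mice. Cd79b, the signalling chain of the B cell receptor, had -1.48 to -0.92 (median -1.09) in the 1000 cGy mice and 1.25 to 2.17 (median 1.77) in the 200 cGy mice. For both genes more than 2 log2 units lay between the nearest mice of the groups. Fcrla was lower by 3.74 ± 0.172 log2 units (13.3-fold, limma adjusted p = 3.13e-15) and Cd79b by 2.89 ± 0.111 (7.42-fold, limma adjusted p = 4.72e-17). From 0 to 200 cGy, the same genes had differed by -0.78 and -2.41, so that Fcrla changed more at the upper step and Cd79b at both.

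Of the 20 B cell markers tested, 11 (55.0%) were lower at 1000 cGy, 9 of them with no overlap, and 1 (5.0%) was higher. Among all genes 11.9% were lower, 1.91% lower with no overlap and 20.0% higher. The median of the markers was -0.62. The counts of lower genes were 11 without 1000 cGy replicate 5, 11 without 200 cGy replicate 6, 14 with no centring and 13 after quantile normalization. The list mean relative to 0 cGy was -2.17 to -1.78 in the 1000 cGy mice (median -2.08) and -1.31 to -0.92 in the 200 cGy mice (median -1.04), so the groups did not overlap. In these bulk samples, fewer B cells and less RNA of these genes per B cell cannot be told apart.

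Surface receptors fell in 6 of 10 cases, beside 11.9% of all genes. Cd22, an inhibitory receptor for sialic acid, had 1.11 to 1.82 in the 1000 cGy mice and 2.66 to 3.81 in the 200 cGy mice, a fall of 1.86 ± 0.169, and Cd79a fell by 1.34, Cd72 by 0.69 and Fcer2a, the low-affinity IgE receptor CD23, by 0.64. Not called were Ms4a1, which encodes CD20, at -0.43 ± 0.181 (limma adjusted p = 0.0661) and Tnfrsf13b at -0.13, both of which had fallen from 0 to 200 cGy by 1.59 and 1.05. Of the signalling genes, the proton channel Hvcn1 fell by 1.94 and the adaptor Blnk by 1.42, whereas Syk, Plcg2 and Btk, kinases and a lipase that myeloid cells also use, were at -0.12, 0.09 and 0.50 and not called. The coactivator Pou2af1 fell by 2.38 ± 0.156, while Pou2f2, the transcription factor Oct-2 with which it works, rose by 0.27 ± 0.101 (limma adjusted p = 0.0398), a call lost in 13 of 24 alternative settings, among them no centring, quantile normalization, the fit of the 2 groups alone and 9 of the 14 in which a mouse was left out (limma adjusted p up to 0.0920). The immunoglobulin genes Ighm and Jchain fell by 1.25 and 0.56.

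Blnk is shown because it was 1 of 2 B cell markers, of 15 with a RefSeq window, that held the octamer ATGCAAAT (reverse complement ATTTGCAT, both strands searched), to which Oct factors and Pou2af1 bind. The stretch is chr19:40994252-40994401 of GRCm38.p6 on the - strand, position -180 to -31 relative to the start site.
Blnk: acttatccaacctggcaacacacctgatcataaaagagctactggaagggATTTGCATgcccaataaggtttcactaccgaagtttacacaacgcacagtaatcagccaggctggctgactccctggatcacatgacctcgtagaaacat
The octamer, in capitals, starts at position -130. It stood in 1.74% of all promoter windows and, counted per gene, in 1.55% of the tested genes with a window. Of the 115 tested genes with an octamer, 26.1% were called higher and 11.3% lower, against 20.0% and 11.9% of the 7300 without. The other marker with it, Vpreb3, part of the pre-B cell receptor pathway, was at -0.60 ± 0.256 and not called after a fall of 2.62 from 0 to 200 cGy.

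Genes outside the marker list also stood among the 12 largest falls, which were picked from called genes with no overlap. Ly6d, a surface marker of early B lineage cells, had 0.20 to 1.17 in the 1000 cGy mice and 2.74 to 3.44 in the 200 cGy mice, and Fcrl1, another Fc receptor-like gene of B cells, had -0.64 to 0.82 in the 1000 cGy mice and 1.74 to 2.72 in the 200 cGy mice. The falls were 2.47 ± 0.151 and 2.01 ± 0.177. Hs3st1, a heparan sulfate sulfotransferase, fell by 2.35 and Serpinb1a, a protease inhibitor, by 1.52.

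MHC class II genes, which B cells, dendritic cells and activated monocytes use to present antigen, fell in 4 of 6 cases (66.7%) with a median of -0.84. The share of all genes called lower was 11.9%. Cd74, the invariant chain, had 0.99 to 2.22 in the 1000 cGy mice and 2.97 to 3.79 in the 200 cGy mice, a fall of 1.64 ± 0.194 with no overlap (3.12-fold, limma adjusted p = 8.89e-07). H2-Aa fell by 1.27, H2-DMa by 0.94 and H2-Eb1 by 0.74, the call of H2-Eb1 being lost without 1000 cGy replicate 1, 200 cGy replicate 3 or 200 cGy replicate 5 (limma adjusted p up to 0.0615), whereas the remaining members, H2-Ab1 and the master regulator Ciita, were at -0.02 ± 0.145 and 0.23 ± 0.193 and not called. Among 11 dendritic cell markers, 3 were higher and 4 lower, and with 1 mouse left out at a time 1 to 4 were higher.

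Irf4, a transcription factor of B and dendritic cells counted on the dendritic list, fell by 1.12 ± 0.157 with no overlap. Of 15 T cell markers 4 (26.7%) were lower and 0 higher by limma (6 and 1 at an unadjusted p under 0.05). Their median was -0.21, and of all genes 11.9% were lower and 20.0% higher. With no centring 8 were lower (median -0.36), and after quantile normalization 9 were lower and 0 higher (11 and 0 at an unadjusted p under 0.05, median -0.46). In the centred values 14 of the 15 lay above the array median in both groups. Cd3g, a chain of the T cell receptor complex, had 2.57 to 3.24 in the 1000 cGy mice and 3.45 to 4.18 in the 200 cGy mice, a fall of 0.86 ± 0.111 after a difference of -0.27 ± 0.111 from 0 to 200 cGy (limma adjusted p = 0.0517). Among the 8 receptor genes on the T cell list, Cd3g was the only 1 called lower, and their median was -0.06. The 7 signalling and transcription genes had 3 lower and a median of -0.31.

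Scd1, stearoyl-CoA desaturase, which makes monounsaturated fatty acids, had the second largest fall. It had -3.66 to -2.57 (median -3.17) in the 1000 cGy mice, against -0.66 to 0.60 (median 0.10) in the 200 cGy mice. The groups lay far apart, with a fall of 3.17 ± 0.186 (9.02-fold, limma adjusted p = 9.7e-13) after 2.27 from 0 to 200 cGy. Its relative Scd2 rose instead, by 1.04 ± 0.121 with no overlap, and of the 34 lipid and sterol genes tested, 7 (20.6%) were higher and 4 (11.8%) lower, shares near the 20.0% and 11.9% of all genes. Srebf2, the sterol-responsive transcription factor, fell by 0.84 with no overlap, and Acly and Fasn of fatty acid synthesis by 0.53 and 0.36, calls lost in 5 and 12 of 24 alternative settings, while Fads1 rose by 1.33 and the sterol enzymes Lss, Mvd and Sc5d by 0.80, 0.49 and 0.44. The synthetic enzymes Sqle, Idi1 and Fdps were at -0.25, -0.28 and -0.06 and not called.

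**Figure D3:**
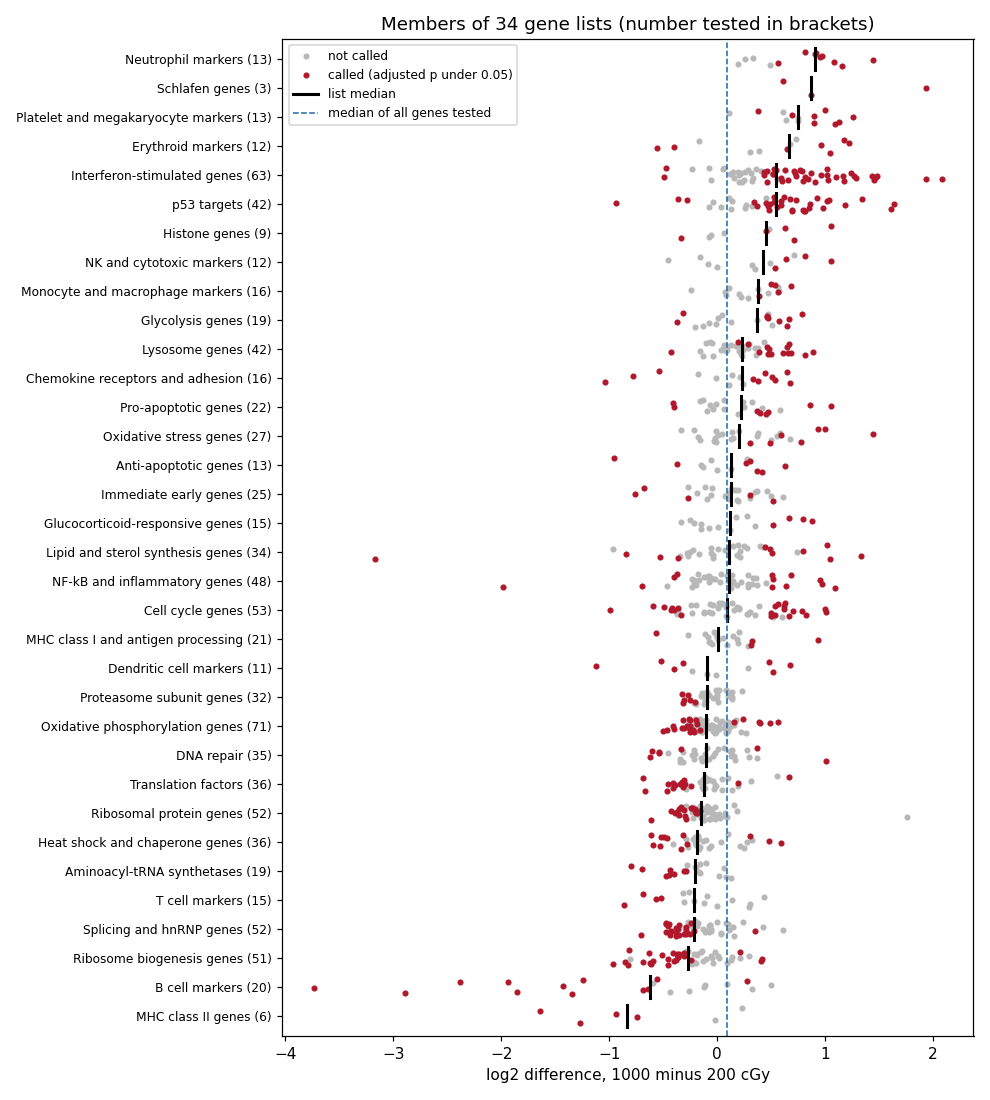
Log2 difference of 1000 minus 200 cGy for every tested member of 34 gene lists, with called genes in red, the median of each list as a black bar and the median of all genes, 0.09, as a dashed line. Neutrophil, Schlafen and platelet lists have the highest medians, and the lists of MHC class II and B cell genes the lowest.

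Markers of cells that the density step should leave behind stood higher at 1000 cGy. Of 13 neutrophil markers 9 (69.2%) were higher, beside 20.0% of all genes, with a median of 0.90. All 13 lay above the array median in both groups. S100a9, a calcium-binding protein abundant in neutrophils, had 7.97 to 9.78 (median 8.94) in the 1000 cGy mice and 6.89 to 8.40 (median 7.29) in the 200 cGy mice, a rise of 1.45 ± 0.308 with overlap. Lcn2, an iron-sequestering granule protein, had 5.10 to 6.12 in the 1000 cGy mice and 3.65 to 5.00 in the 200 cGy mice, a rise of 1.15 ± 0.267 with no overlap, whereas Ly6g and Mmp9, picked after their values were seen, were at 0.25 ± 0.236 and 0.19 ± 0.313 and not called. The list mean relative to 0 cGy was 2.68 to 3.40 in the 1000 cGy mice and 1.94 to 2.67 in the 200 cGy mice, so that the groups nearly touched. After quantile normalization the median of these markers was 0.00 and limma called 0 of the 13, also at an unadjusted p under 0.05.

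Platelet and megakaryocyte markers rose in 8 of 13 cases (61.5%), beside 20.0% of all genes, with a median of 0.75. Clec1b, a platelet activation receptor, had 7.07 to 8.95 in the 1000 cGy mice and 5.95 to 7.33 in the 200 cGy mice, a rise of 1.26 ± 0.314 (limma adjusted p = 0.00435). Its groups overlapped, and after quantile normalization the list median was 0.10 and limma called 0 of the 13, also at an unadjusted p under 0.05. Without 1 mouse at a time, 4 to 11 were called higher, with 4 without 1000 cGy replicate 6 or 200 cGy replicate 1. The list mean relative to 0 cGy was 1.55 to 2.91 in the 1000 cGy mice, against 0.79 in 200 cGy replicate 1 and 1.45 to 1.68 in the other 6 mice of that dose. Erythroid markers were split, with 5 of 12 higher and 2 lower: Alas2, which starts haem synthesis in red cells, rose by 1.05 ± 0.250 with overlap, and Tfrc, the transferrin receptor that many dividing cells also carry, fell by 0.55 ± 0.112. After quantile normalization limma called 0 erythroid markers higher (4 at an unadjusted p under 0.05) and 2 lower, with a median of 0.23 in place of 0.66, and the call of Alas2 was lost. Of the monocyte and macrophage markers 5 of 16 (31.2%) were higher (median 0.38, after quantile normalization -0.12). Among the NK and cytotoxic markers 4 of 12 (33.3%) were higher (median 0.42, after quantile normalization 0.00). The part of these cells in the rises of the interferon, Schlafen and inflammatory genes was not tested.

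**Figure D4:**
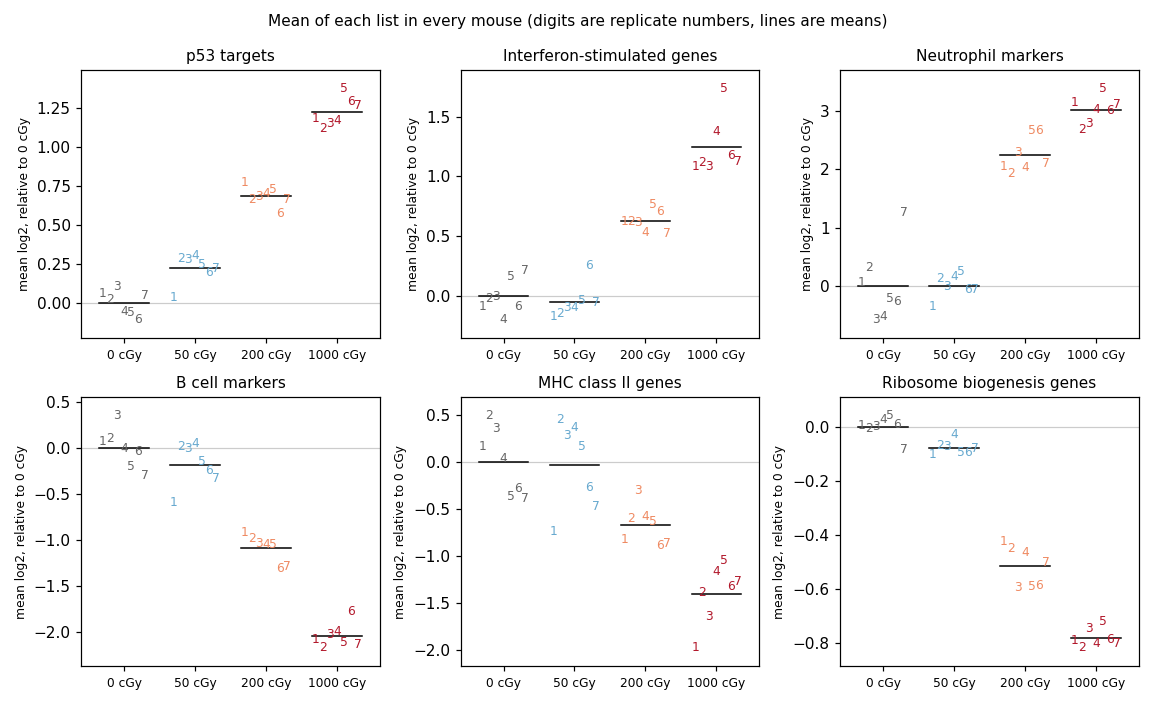
Mean of 6 gene lists in every mouse, in log2 units relative to the mean of the 0 cGy mice, with digits for replicate numbers and lines for group means. The 1000 cGy mice lie between 1.12 and 1.38 for p53 targets, above the 0.57 to 0.77 of the 200 cGy mice, and the B cell markers are lowest in the 1000 cGy mice.

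The counts of inflammatory genes turned with the scaling. Of 48 tested 8 (16.7%) were higher and 4 (8.3%) lower with a median of 0.11, beside 20.0% and 11.9% of all genes. Without 1000 cGy replicate 5, 7 were lower. With no centring 7 were higher and 10 lower (median -0.04), and after quantile normalization 2 were higher and 8 lower (median -0.20, 3 and 16 at an unadjusted p under 0.05). Il6, the cytokine interleukin 6, had 0.34 to 2.19 (median 0.64) in the 0 cGy mice, 0.02 to 1.28 (median 0.74) in the 200 cGy mice and -1.85 to -0.96 (median -1.08) in the 1000 cGy mice. All 7 mice at 1000 cGy lay below every mouse of both other groups, with a fall of 1.98 ± 0.249 (3.95-fold, limma adjusted p = 2.15e-06), whereas the difference of 200 minus 0 cGy was -0.15 ± 0.249 (limma adjusted p = 0.678). Il1b, the cytokine interleukin 1 beta, had 8.16 to 8.73 in the 1000 cGy mice and 6.96 to 7.83 in the 200 cGy mice, a rise of 1.10 ± 0.195 that turned to -0.08 after quantile normalization. Ikbke, a kinase upstream of interferon regulatory factors, rose by 0.69 ± 0.0812 with no overlap, a call lost after quantile normalization.

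Genes of ribosome production, splicing and translation stood lower in small steps. Ribosome biogenesis genes fell in 23 of 51 cases (45.1%) and rose in 3 (5.9%), beside 11.9% and 20.0% of all genes. Their median was -0.27, -0.42 with no centring and -0.27 after quantile normalization. The list mean relative to 0 cGy was -0.82 to -0.72 in the 1000 cGy mice and -0.60 to -0.42 in the 200 cGy mice, with no overlap. Nop58, a core protein of box C/D small nucleolar particles, had -1.67 to -1.33 (median -1.58) in the 1000 cGy mice and -0.85 to -0.09 (median -0.60) in the 200 cGy mice, a fall of 0.96 ± 0.122 after a difference of -0.08 ± 0.122 from 0 to 200 cGy. Gnl3, the nucleolar protein nucleostemin, fell by 0.85 ± 0.0877 and Dkc1, the pseudouridine synthase dyskerin, by 0.82 ± 0.0989, both with no overlap. Of the small nucleolar particle genes 5 of 7 fell.

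Splicing and hnRNP genes fell in 23 of 52 cases and rose in 1, with a median of -0.22 (15 lower without 200 cGy replicate 1), and Snrpd2, a core protein of spliceosomal particles, fell by 0.48 ± 0.0724 with no overlap. Aminoacyl-tRNA synthetases fell in 8 of 19 cases (42.1%), ribosomal protein genes in 17 of 52 (32.7%) and translation factors in 13 of 36 (36.1%), beside 11.9% of all genes. Their medians were -0.21, -0.15 and -0.12. Myc, the transcription factor that drives ribosome production, had -3.14 to -1.90 in the 1000 cGy mice and -1.99 to -1.31 in the 200 cGy mice, a fall of 0.76 ± 0.167 (limma adjusted p = 0.00155). The Myc groups overlapped in a narrow range. Lysosome genes moved the other way, with 14 of 42 (33.3%) higher and 1 lower (median 0.23, 9 higher without 200 cGy replicate 1). With no centring 7 were higher (median 0.08), and after quantile normalization 9 were higher and 3 lower. Of 19 glycolysis genes 7 (36.8%) were higher and 2 lower (median 0.37), beside 20.0% and 11.9% of all genes. With no centring 4 were higher and 3 lower, and after quantile normalization 6 and 1 with a median of 0.06. Gapdh rose by 0.66 and Ldhb by 0.79, both with no overlap.

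Cell cycle genes went in both directions, with 14 of 53 higher (26.4%) and 8 lower (15.1%), shares near the 20.0% and 11.9% of all genes. Their median was 0.09, which was -0.06 with no centring. Mcm4, a subunit of the replicative helicase, had -2.38 to -1.69 (median -1.95) in the 1000 cGy mice and -1.44 to -0.47 (median -1.06) in the 200 cGy mice. It fell by 1.00 ± 0.146 with no overlap, and Pold1, the catalytic subunit of DNA polymerase delta, fell by 0.59 ± 0.111. Birc5, survivin, rose by 0.63 ± 0.161 with overlap. Of 35 DNA repair genes 2 (5.7%) were higher, below the 20.0% of all genes, and 5 (14.3%) lower, near the 11.9% (median -0.10). However, 10 were lower without 1000 cGy replicate 5, 9 without 200 cGy replicate 6 and 14 with no centring. Parp1, which senses strand breaks, fell by 0.62 ± 0.105 with no overlap after 1.49 from 0 to 200 cGy.

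The remaining lists moved little or in both directions, and several of their counts turned on the scaling. Beside them, 20.0% of all genes were called higher and 11.9% lower. Oxidative phosphorylation genes had 6 higher and 18 lower of 71, with complex I falling in 11 of 34 cases, and 31 were lower with no centring, 9 after quantile normalization and 8 to 24 with 1 mouse left out. Chaperones had 3 higher and 9 lower of 36 (18 lower with no centring), and proteasome subunits 6 lower of 32 (12 with no centring and 3 to 9 with 1 mouse left out). Pro-apoptotic genes had 6 higher and 2 lower of 22, against 2 and 2 after quantile normalization, and anti-apoptotic genes 5 and 2 of 13, with 1 higher with no centring and 2 to 5 with 1 mouse left out. Oxidative stress genes had 7 higher of 27 (25.9%), a share near the 20.0% of all genes. Among the 7 were the ferritin chains Fth1 (0.93) and Ftl1 (1.00), which store iron.

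Histone genes had 4 higher and 1 lower of 9, but after quantile normalization limma called 0 higher (1 at an unadjusted p under 0.05), with a median of 0.08. Chemokine receptor and adhesion genes had 7 higher and 3 lower of 16 and 2 to 8 higher with 1 mouse left out, and limma called 0 higher both with no centring (3 at an unadjusted p under 0.05) and after quantile normalization (0 at an unadjusted p under 0.05). MHC class I and antigen processing genes had 3 higher and 1 lower of 21, and after quantile normalization limma called 0 higher (1 at an unadjusted p under 0.05) and 2 lower. Immediate early genes had 2 and 3 of 25, and after quantile normalization limma called 0 higher (2 at an unadjusted p under 0.05) and 7 lower. Glucocorticoid-responsive genes had 4 higher of 15 (26.7%), a share near the 20.0% of all genes, with Ddit4, an inhibitor of mTORC1, at 0.88. The counts were 4 higher and 4 lower with no centring and 3 and 3 after quantile normalization.

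To see which genes kept their direction, the step from 0 to 200 cGy was set beside that from 200 to 1000 cGy. At the lower step 2112 genes were called higher (23.2%) and 1843 lower (20.3%). The steps share the 200 cGy mice, so that an error in those mice moves both in opposite directions, and the classes that follow are a description with no test of their overlap. Called in the same direction at both steps were 1187 genes, 581 up and 606 down, and 234 of these had no overlap between the 1000 and 200 cGy mice. Called at the upper step and not at the lower were 1535 genes, 1131 higher and 404 lower, with 90 showing no overlap. Among the 650 genes that had changed by at least 1 log2 unit at the lower step, 191 of the 539 that had risen were called higher again and 2 lower, and 70 of the 111 that had fallen were called lower again and 2 higher.

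Genes that turned back, called at both steps in opposite directions, numbered 179: 70 first rose and then fell, and 109 first fell and then rose. Of these 16 had no overlap between the 1000 and 200 cGy mice, and the genes named below by rule were picked from these 16. The median size of the upper step over all 179 was 0.41 log2 units. Against 0 cGy, 150 of the 179 were not called at 1000 cGy, 18 were still called in the first direction and 11 in the other. Their number was 109 without 200 cGy replicate 1 and 119 without 200 cGy replicate 7, and 62 where the lower step was 50 to 200 cGy.

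The 2 that had risen by over 1 log2 unit and turned back were Igfbp4 and Tnfsf9. Igfbp4, which binds insulin-like growth factors, had -0.73 to 0.26 (median -0.42) in the 0 cGy mice, 0.38 to 1.07 (median 0.66) in the 200 cGy mice and -0.80 to 0.01 (median -0.43) in the 1000 cGy mice. It thus stood apart in the 200 cGy mice alone, with a fall of 1.08 ± 0.130 at the upper step (limma adjusted p = 1.29e-06) after a rise of 1.01 ± 0.130 and a difference of 1000 minus 0 cGy of -0.07 ± 0.130. Tnfsf9, the ligand of the T cell costimulator 4-1BB, had -2.24 to -1.04 (median -1.75) in the 0 cGy mice, -0.57 to 0.42 (median -0.12) in the 200 cGy mice and -1.49 to -0.66 (median -0.89) in the 1000 cGy mice. It fell by 0.86 ± 0.164 after a rise of 1.54 and remained 0.68 above 0 cGy. Pim2, a survival kinase, fell by 0.96 ± 0.116 after a rise of 0.60, Ndrg3 by 0.93 after 0.71, Slc49a4 by 0.95 after 0.43 and Lrig1, a restraint on growth factor receptors, by 0.50 after 0.40.

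In the other direction, Plk2, a polo-like kinase on the p53 list, had -0.99 to -0.11 (median -0.55) in the 0 cGy mice, -1.39 to -0.91 (median -1.24) in the 200 cGy mice and -0.68 to 0.20 (median -0.15) in the 1000 cGy mice. The 1000 cGy mice lay above all 200 cGy mice, a rise of 0.98 ± 0.147 (limma adjusted p = 2.88e-05) after a fall of 0.67. Cpt1c, a carnitine palmitoyltransferase relative on the same list, rose by 0.59 ± 0.137 after a fall of 0.53, and Lpin3, Slf1, AI597479 and Hars2 rose by 0.90, 0.85, 0.69 and 0.32, the call of Hars2 being lost with no centring and after quantile normalization. The 2 genes that had fallen by over 1 log2 unit and turned back, Fech and Stac2, lie outside the naming rule and were chosen after their values were seen: Fech, ferrochelatase of haem synthesis, rose by 1.22 ± 0.372 after -1.01, a call lost after quantile normalization, and Stac2 by 0.63 ± 0.136 after -1.02, both with overlap.

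Genes that levelled off had changed by at least 1 log2 unit from 0 to 200 cGy, with a 95% interval of 1000 minus 200 cGy inside 0.5 log2 units of 0. There were 113, of which 93 had risen and 20 had fallen. Of all 9096 genes, 4324 had an interval that narrow and that near 0, so the class depends on precision, and with 0.7 in place of 0.5 there were 230. Gadd45b, a stress-response gene on the p53 list, had -0.48 to 0.73 (median -0.34) in the 0 cGy mice, 1.38 to 2.27 (median 1.76) in the 200 cGy mice and 1.36 to 2.23 (median 1.83) in the 1000 cGy mice. Both irradiated groups covered the same range, with a difference of 0.03 ± 0.165 after a rise of 2.02. Myd88, the adaptor of Toll-like receptors, had 2.12 to 2.81 in the 1000 cGy mice and 1.66 to 2.64 in the 200 cGy mice, a difference of 0.15 ± 0.151 after a rise of 2.00, and the sialyltransferase St3gal4, Fam114a1, Arrdc4 and Slc35a5 differed by 0.01, -0.02, -0.02 and 0.03 after rises of 1.83 to 2.11.

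Lmo2, a transcriptional adaptor of blood stem and B cells, was the largest of the falls that levelled off, with 1.53 to 2.66 (median 2.06) in the 0 cGy mice, 0.10 to 0.94 (median 0.40) in the 200 cGy mice and 0.14 to 0.99 (median 0.44) in the 1000 cGy mice. It differed by 0.07 ± 0.153 at the upper step. Cdc25b, a phosphatase that starts mitosis, Tpst1 and Cxxc5 differed by -0.05, -0.18 and -0.14. Xpo1, the nuclear export receptor, and Strbp met the rule and yet were called lower, by 0.24 ± 0.0850 and 0.23 ± 0.0851, which are falls inside the chosen limit. These calls were lost in 9 and 15 of 24 alternative settings, 7 and 11 of them with a mouse left out (limma adjusted p up to 0.0777 and 0.0863). Ppp1r2, an inhibitor of protein phosphatase 1, rose by 1.44 from 0 to 200 cGy and differed by 0.13 ± 0.0853 between 1000 and 200 cGy (95% interval -0.05 to 0.30, limma adjusted p = 0.248).

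**Figure D5:**
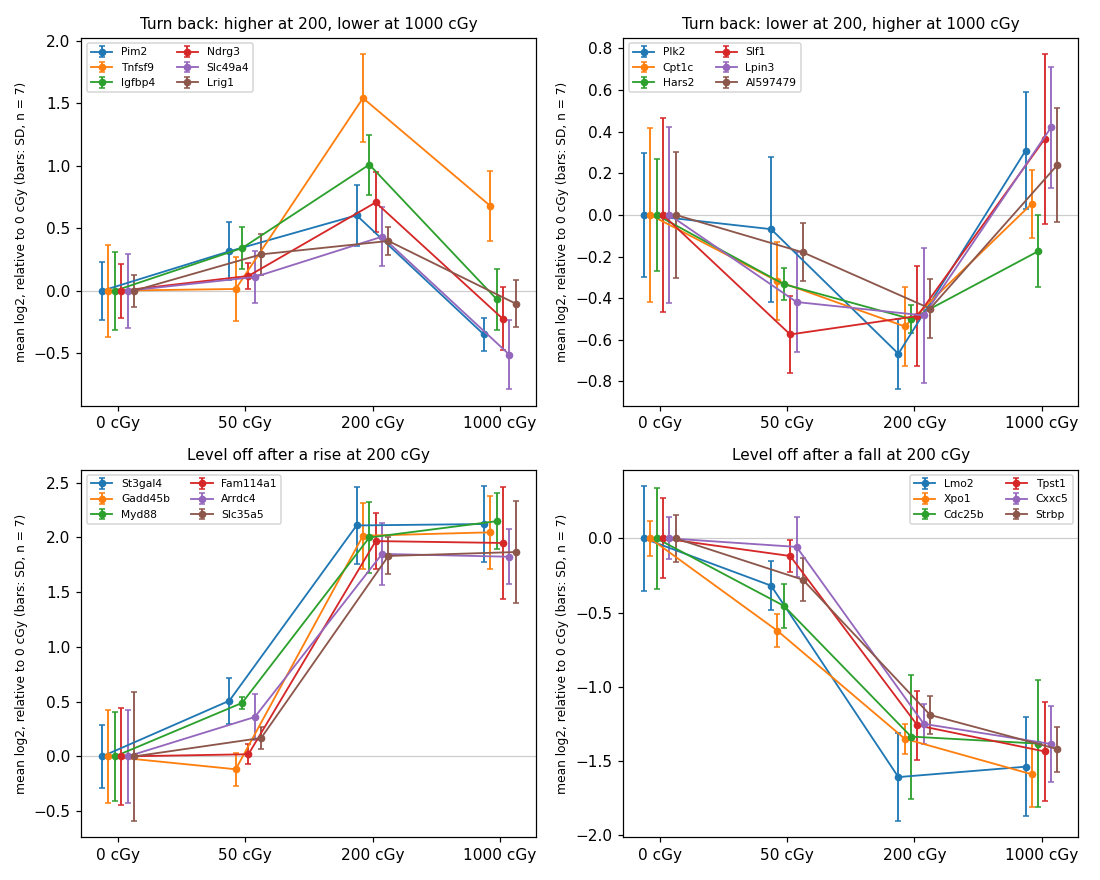
Group means, in log2 units relative to 0 cGy with bars for SD (n = 7), of named genes that turned back after a rise or after a fall at 200 cGy and of named genes that levelled off, over the doses 0, 50, 200 and 1000 cGy. Igfbp4 stands up at 200 cGy alone, Plk2 dips there, and Gadd45b and Lmo2 are level between 200 and 1000 cGy.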

How the data were processed

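Mononuclear cells of 28 mice, 7 for each of 0, 50, 200 and 1000 cGy, were profiled on 2-colour arrays. The authors deposited log2 ratios of sample (Cy5) to reference (Cy3) in 1 table of 16722 probes. Per the study's methods, a spot was kept where both dyes gave a signal of at least 100. The lowest ratio, 0.01, stood at 479 values, and 2174 values were missing, although the study's methods also name imputation, and none was imputed here. The sources give no counts, so the number of arrays limits the precision, with a median SE of 0.129 log2 units over genes.

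Each array was centred on its median. Probes given exactly 1 gene by the platform annotation (10820, against 232 with several and 5670 with none) were averaged per gene. limma 3.58.1 in R 4.3.3 fitted the 4 dose means over all 28 arrays with moderated variances and two-sided tests, and p-values were Benjamini-Hochberg adjusted over all genes or all probes, with calls under 0.05. The labels do not say whether replicates came from separate exposures, so p-values measure the spread between these mice. The fit was tested on simulated data, drawn as independent normal values with the same spread of a probe at every dose. These data held no shift between arrays and no deviating mouse. The test therefore does not cover those features or the unequal spread of the doses.

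Genes were named by rule: the 12 largest rises and 12 largest falls without overlap, the 3 members of each of 34 lists with the smallest adjusted p, 6 genes each way of those that turned back without overlap, 6 each way of those that levelled off, Ei24 and Ppp1r2, and any member of the p53, B cell, interferon, Schlafen and lipid lists. The members and lists were chosen with earlier results of these data known. Of 1329 list entries, 954 were tested. Alternatives were no centring, quantile normalization, the 2 groups alone, array weights, robust moderation, other minimum numbers of values, 1 probe per gene, the lowest ratio as missing, a replicate block and each mouse left out. Promoter windows came from RefSeq, GRCm38.p6, matched by gene symbol for 7415 of 9096 genes.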

Additional observations from a re-analysis of the deposited data

Results flagged for a closer look

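Among the 202 genes named in the text and the 34 list means, 472 groups of 7 mice were looked at for a mouse far from the rest, by its gap to the nearest mouse as a share of the group's range, and 40 groups (8.5%) passed the 95% limit, where chance passes about 5%. The groups hold the same mice, and the list means share genes with the named ones. They are therefore not independent, and the 2 percentages do not form a test. At 1000 cGy the mouse was replicate 5, and high, for Oas1g (share 0.616), Oasl1 (0.664), Ly75 (0.768), Erap1 (0.678), Slfn2 (0.572), Xpo1 (0.630), Ccng1 (0.678), Gbp2 (0.615), Herc6 (0.662), Irgm1 (0.614), Oas2 (0.634) and Syk (0.625), and low for Ifnar2 (0.623). The same mouse was also high for the list means of pro-apoptotic genes (0.646), MHC class I and antigen processing (0.658), aminoacyl-tRNA synthetases (0.579) and NF-kB and inflammatory genes (0.628). Erap1, an aminopeptidase that trims antigenic peptides, had a log2 ratio of 0.08 in this mouse and -1.17 to -0.77 in the other 6. Oasl1 had 2.92 in it and 1.64 to 2.07 in the others, so that its rise over 200 cGy was also present in them.

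At 200 cGy the mouse was replicate 6, and low, for Dcxr (0.659), Fcrla (0.662), Ly6d (0.587), H2-DMa (0.625), Psmd7 (0.677) and Strbp (0.590), and high for Fads1 (0.575). Fcrla had 3.42 in it and 3.92 to 4.17 in the other 6, and Dcxr had 0.48 in it and 1.12 to 1.45 in the others.

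The remaining groups had other mice apart. At 1000 cGy, replicate 6 was low for Kank3 (0.649) and Lat (0.696) and high for Cpt1c (0.646) and Hars2 (0.742), replicate 1 was low for H2-DMa (0.768) and high for Maff (0.616), and replicate 4 was low for Iars (0.579) and Ppp1r2 (0.619), and replicate 7 was low for Plcg2 (0.586). At 200 cGy, replicate 1 was low for Cd9 (0.568) and the mean of platelet and megakaryocyte markers (0.745) and high for Maff (0.609) and Tnfrsf13b (0.625), replicate 3 was high for Acly (0.642), replicate 4 was low for Slfn9 (0.597), and replicate 5 was high for the mean of monocyte and macrophage markers (0.622).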

How the results depend on the processing

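With no centring, 1719 probes were higher and 4052 lower at 1000 cGy, and 954 genes higher and 1858 lower, while quantile normalization gave 1404 probes and 860 genes higher. Of the 2901 called genes, 2034 (70.1%) were called with no centring and 1759 (60.6%) after quantile normalization. With the 2 groups alone 689 genes were lower. With 1 mouse left out at a time, 1272 (without 1000 cGy replicate 6) to 2178 (without 200 cGy replicate 6) genes were higher and 808 to 1322 lower, 2224 to 3815 probes higher and 1963 to 2826 lower, 977 to 1346 genes changed further, 93 to 125 levelled off and 109 to 259 turned back (109 without 200 cGy replicate 1 and 119 without 200 cGy replicate 7). Taking 200 minus 50 cGy as the lower step gave 62 that turned back and 59 that levelled off, and an interval within 0.7 gave 230 that levelled off. Quantile normalization turned the sign of Gzma (-0.0717), Apoe (-0.27), Plek (-0.0309), H2-D1 (-0.23), Il1b (-0.0753), Selplg (-0.0886), Nfkbia (-0.0721), Bbc3 (-0.104) and Pmaip1 (-0.0799). Of 170 genes named in the text that were called, 120 kept the call in all 24 settings and 50 lost it or turned sign in at least 1. The cause of these shifts was not tested.

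Same-numbered mice of 1000 and 200 cGy correlated at -0.0761 to 0.44 (mean 0.161, against -0.0292 for other numbers), and 1 of 7 was closest to its own number. They were not taken as pairs, since not every pair was over 0.1. A replicate block gave 1749 genes higher, 1042 lower and 174 that turned back. With 7 mice a dose the median SE of a gene was 0.129 log2 units, so that small differences were not detectable, and ratios to a reference give no levels between genes.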
